A study of Mus musculus with 8 samples.

Results

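The nuclear receptor TR4, the subunits of the CUL4-DDB1 ubiquitin ligase and the fat uptake genes linked to TR4 were followed in mouse liver through 6 genes, namely Nr2c2, Ddb1, Cul4a, Cul4b, Cd36 and Pparg. Every probe set whose annotation lists exactly 1 symbol, and that symbol among these 6, was kept, which gave 12 of the 22626 probe sets tested and 6 of 12393 genes. Total RNA came from the livers of 4 wild-type (WT) mice and 4 mice lacking the histone deacetylase SIRT7 (SIRT7 KO), 1 array for each liver, in a study of a mouse model of nonalcoholic steatohepatitis. No agent or diet is named in the labels for either genotype, and no driver or tissue restriction is given for the deletion. The sources used here do not give the age, sex or strain of the animals. Arrays are named WT1 to WT4 and KO1 to KO4, as in the labels. The question was whether the RNA of this receptor, of its ligase and of its fat uptake targets differs between the genotypes.

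TR4, encoded by Nr2c2, is an orphan nuclear receptor that binds direct repeats of a short hexamer in DNA and activates genes of lipid uptake and glucose output. The CUL4-DDB1 ligase attaches ubiquitin to proteins that are then degraded. In it, a CUL4 cullin (Cul4a or Cul4b) is the scaffold, DDB1 is the adaptor, and exchangeable substrate receptors choose the target. CD36 is a membrane protein that takes up long-chain fatty acids. PPARγ, encoded by Pparg, is a nuclear receptor that drives fat storage genes, abundant in adipose tissue and raised in fatty liver. Arrays measure RNA, so the amount and the degradation of the TR4 protein were not measured here.

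Cd36 and Pparg had higher levels in SIRT7 KO livers by more than 2-fold in the group means, and Pparg alone of the 6 genes passed the threshold. The RNA of the ligase subunits Ddb1, Cul4a and Cul4b differed by at most 0.13 in size on the log2 scale, with no probe set past the threshold, and the brightest Nr2c2 probe set had a lower mean in SIRT7 KO livers without passing. Of the 12 probe sets, 1 was called higher and 0 lower by limma at an adjusted p under 0.15, whereas 4.31% of all probe sets were called, 1.92% higher and 2.39% lower. Before adjustment, 4 of the 12 were higher and 1 lower at a p below 0.05, against 6.46% and 8.43% (14.9% together) over the whole table. The 4 are the 3 probe sets of Cd36 and the 1 of Pparg. In 0 of the 12 probe sets did the 4 SIRT7 KO arrays lie wholly apart from the 4 WT arrays, against 9.35% of all probe sets. All levels below are log2 expression and all differences are SIRT7 KO minus WT on that scale.

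**Figure D1:**
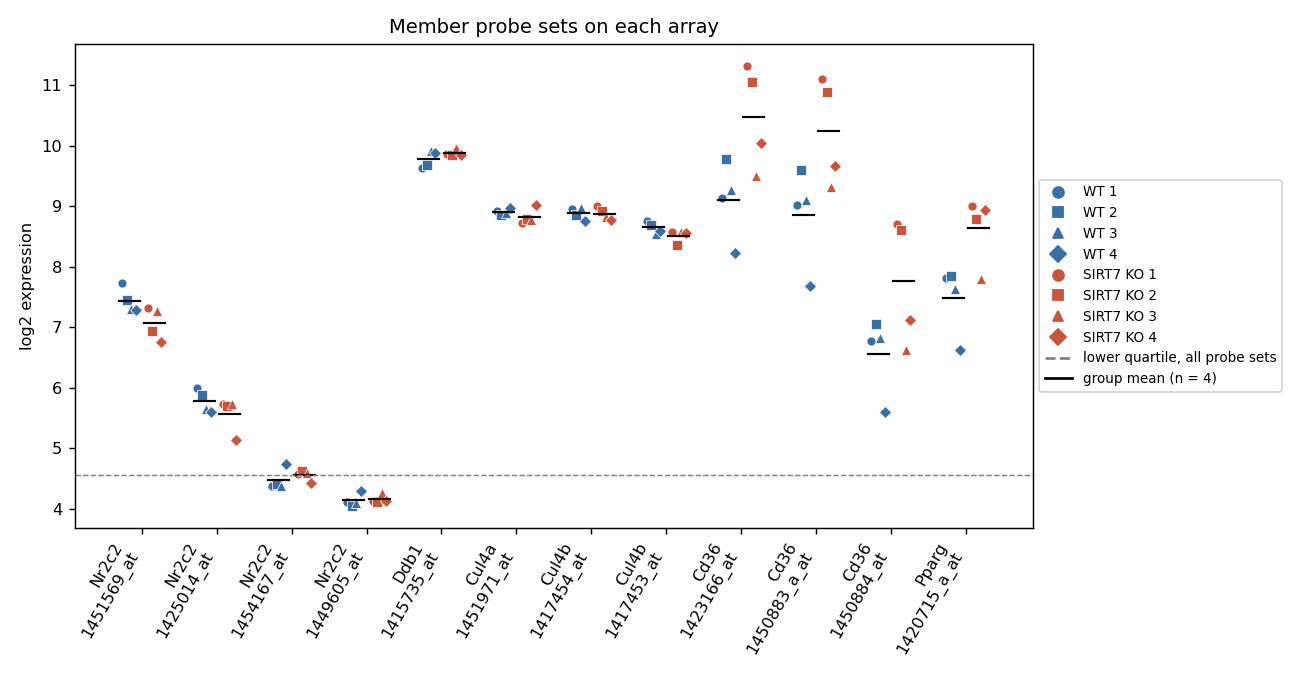
Log2 expression (vertical axis) of each of the 12 probe sets (horizontal axis) on the 8 arrays; blue symbols are the 4 WT livers, red symbols the 4 SIRT7 KO livers, the shape gives the array number, black lines are group means and the dashed line is the lower quartile of all probe set means (4.56). Cd36 and Pparg spread widely within each genotype, with KO1 highest and WT4 lowest, while Ddb1, Cul4a and Cul4b lie close together.

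Sirt7 itself checks the labels. Its level was between 8.57 and 8.98 on the WT arrays and between 4.40 and 4.90 on the SIRT7 KO arrays (limma adjusted p = 9.2e-07). The array medians were between 6.30 and 6.36, and the hepatocyte genes Alb and Ttr were near the top of the scale, at 15.22 and at least 14.98 in both genotype means. Along the second principal component of all probe sets, with 22.6% of the variance, KO3 and KO4 and WT4 (-24.4, -19.4 and -10.7) stood apart from the other 5 arrays (1.52 to 19.0). The labels name no batch. Each label names a liver, a genotype and a number, taken here as 1 mouse. No litter or collection day is given, so the p-values speak only of how these samples vary.

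Nr2c2, the TR4 gene, has 4 probe sets on the array. Its brightest one, 1451569_at, read 7.73, 7.45, 7.30 and 7.29 on WT1 to WT4 and 7.32, 6.94, 7.27 and 6.76 on KO1 to KO4. KO2 and KO4 lay below all WT arrays, KO3 just below the lowest WT array, and KO1 within the WT range. The difference was -0.37 ± 0.14 (SE, n = 4 per group, limma adjusted p = 0.274), with a 95% interval of -0.69 to -0.043. It did not pass, nor did it pass whichever array was left out (-0.45 to -0.27, adjusted p of at least 0.241).

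The second Nr2c2 probe set, 1425014_at, which is annotated to the same source sequence, had a level of 5.79 ± 0.19 in WT livers and 5.58 ± 0.29 in SIRT7 KO livers (SD, n = 4 each), a difference of -0.21 ± 0.15 (SE, adjusted p = 0.572). Across the 8 arrays these probe sets varied together (Pearson r = 0.86, exact permutation p = 0.00804, adjusted p = 0.0201 over 10 pairs of probe sets of the same gene; Spearman rho = 0.74, exact permutation p = 0.0458, adjusted p = 0.115). Without WT1 and KO4, the arrays farthest from the median, r fell to 0.41, and leaving out such arrays also narrows the range. With the mean of each genotype removed, r over the 8 arrays was 0.85. The other probe sets, 1454167_at and 1449605_at, were dim, with means of 4.48 and 4.14 in WT and 4.56 and 4.16 in SIRT7 KO livers, at or under the quartile marked by the dashed line (4.56). Their differences of 0.076 (adjusted p = 0.777) and 0.021 (adjusted p = 0.933) are close to background, and that of 1449605_at turned negative, to -0.0033, under a further quantile normalization.

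No ligase subunit passed the test. Ddb1, the adaptor, read 9.64, 9.68, 9.91 and 9.88 on the WT arrays and 9.85, 9.84, 9.96 and 9.84 on the SIRT7 KO arrays. The SIRT7 KO arrays all lay above WT1 and WT2, while WT3 and WT4 lay above KO1, KO2 and KO4. The difference was 0.10 ± 0.082 (SE, n = 4 per group, adjusted p = 0.651, 95% interval -0.088 to 0.28).

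Cul4a, a scaffold cullin, read 8.91, 8.85, 8.89 and 8.96 on the WT arrays and 8.73, 8.79, 8.77 and 9.02 on the SIRT7 KO arrays. KO1 to KO3 were below all WT arrays and KO4 above them all. The difference was -0.074 ± 0.078 (SE, adjusted p = 0.724, 95% interval -0.25 to 0.10).

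Cul4b, the other CUL4 scaffold, is covered by 2 probe sets. The brighter, 1417454_at, had a level of 8.89 ± 0.10 in WT livers and 8.88 ± 0.10 in SIRT7 KO livers (SD, n = 4 each), a difference of -0.0078 ± 0.079 (SE, adjusted p = 0.977, 95% interval -0.19 to 0.17), whose sign turned under a further quantile normalization (0.020). The dimmer, 1417453_at, read 8.76, 8.69, 8.54 and 8.60 on the WT arrays and 8.57, 8.36, 8.57 and 8.55 on the SIRT7 KO arrays, and KO2 was the lowest of the 8. Its difference was -0.13 ± 0.078 (SE, adjusted p = 0.479, 95% interval -0.31 to 0.041). Over the 8 arrays the 2 probe sets did not track each other (r = -0.013, exact permutation p = 0.974; rho = -0.19, exact permutation p = 0.665; r = 0.038 without WT4 and KO1). The 95% intervals of the 4 ligase probe sets all lie between -0.31 and 0.28. A p above the threshold does not show that the levels are equal.

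**Figure D2:**
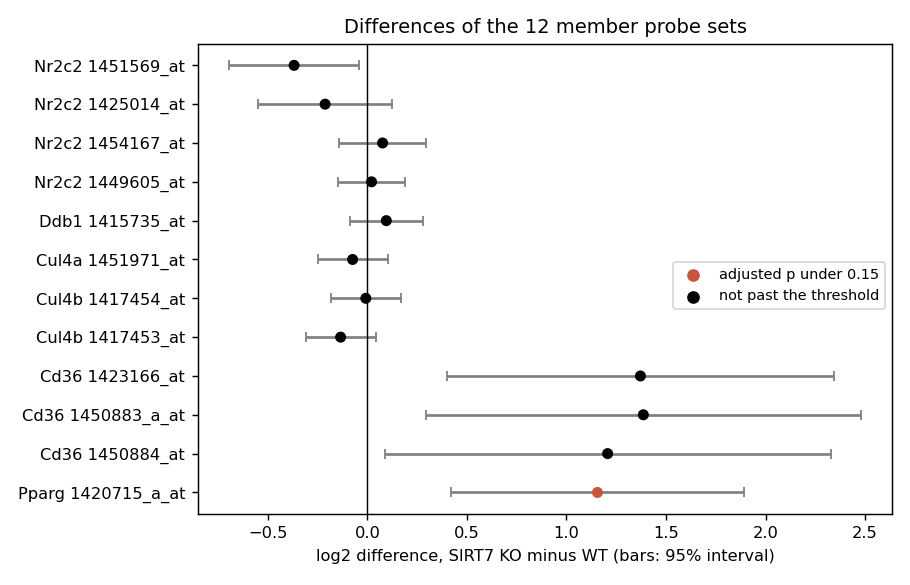
Difference in log2 expression, SIRT7 KO minus WT (horizontal axis), for each of the 12 probe sets (vertical axis); points are limma estimates over 4 arrays per genotype and bars are 95% intervals. The 4 probe sets of Ddb1, Cul4a and Cul4b lie between -0.13 and 0.10 with short bars, those of Cd36 and Pparg between 1.16 and 1.39 with long bars, and Pparg (red) passed at an adjusted p of 0.145.

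The windows around the annotated starts of Cd36 and Pparg are shown because these are the members with the large differences, and because both TR4 and PPARγ with its partner RXR bind repeats of the hexamer AGGTCA. All sequences are from RefSeq (GRCm38.p6) and cover 250 bases before to 50 after a start; all 6 genes matched by symbol, with 8 windows in all, of which 3 belong to Pparg. The hexamer was searched as AGGTCA or its reverse complement TGACCT, and matches are in capitals. One window of Cd36, on the minus strand at chr5:17835847-17836146, and 2 of Pparg, on the plus strand at chr6:115360894-115361193 and chr6:115362099-115362398, hold 1 match each.
Cd36: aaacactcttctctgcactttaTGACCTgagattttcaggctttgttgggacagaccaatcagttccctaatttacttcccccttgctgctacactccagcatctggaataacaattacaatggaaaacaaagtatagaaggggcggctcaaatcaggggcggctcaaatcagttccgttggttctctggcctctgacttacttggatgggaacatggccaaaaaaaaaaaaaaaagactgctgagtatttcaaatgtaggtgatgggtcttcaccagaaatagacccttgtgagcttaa
Pparg, upstream start: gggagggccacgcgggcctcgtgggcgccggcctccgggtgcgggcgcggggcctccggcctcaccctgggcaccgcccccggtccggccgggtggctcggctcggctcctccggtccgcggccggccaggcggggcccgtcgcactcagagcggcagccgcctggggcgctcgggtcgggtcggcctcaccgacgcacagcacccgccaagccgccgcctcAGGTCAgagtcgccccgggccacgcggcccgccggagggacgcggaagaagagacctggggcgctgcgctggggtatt
Pparg, second start: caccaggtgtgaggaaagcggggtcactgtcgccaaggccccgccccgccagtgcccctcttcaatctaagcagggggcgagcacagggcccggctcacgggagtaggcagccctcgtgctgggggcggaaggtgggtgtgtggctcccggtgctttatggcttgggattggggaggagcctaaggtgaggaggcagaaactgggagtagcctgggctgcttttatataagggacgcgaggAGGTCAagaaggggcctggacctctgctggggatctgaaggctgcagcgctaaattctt
The match begins at base -228 from the start in Cd36, where it reads TGACCT, and at bases -28 and -9 in the 2 Pparg windows, where it reads AGGTCA. The third Pparg window (chr6:115421816-115422115) and the single windows of Nr2c2, Ddb1, Cul4a and Cul4b hold none. Of all 32851 windows of this length, 16.3% hold the hexamer, and 0.0396% hold the repeat with 1 base between, searched on both strands as AGGTCA, any base and AGGTCA again; 0 of the 8 windows hold it. Any window with the repeat also counts among those with the hexamer. Such a match is a string of letters in this window, and binding was not measured.

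Cd36, with the TGACCT string above, read 9.14, 9.78, 9.27 and 8.23 on WT1 to WT4 and 11.31, 11.05, 9.50 and 10.04 on KO1 to KO4 by its brightest probe set, 1423166_at. KO1, KO2 and KO4 were above all WT arrays, KO3 was below WT2, and WT4 was the lowest of all. The group means were 9.10 ± 0.65 (SD, n = 4) and 10.48 ± 0.85 (SD, n = 4), a difference of 1.37 ± 0.43 (SE), or 2.59-fold, which missed the threshold (limma adjusted p = 0.181, unadjusted p = 0.0107, 95% interval 0.40 to 2.34).

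The other probe sets of Cd36, which are annotated to the same source sequence, ordered the arrays much alike. 1450883_a_at read 9.01, 9.60, 9.11 and 7.68 on the WT arrays and 11.09, 10.88, 9.32 and 9.66 on the SIRT7 KO arrays, and 1450884_at read 6.77, 7.05, 6.82 and 5.60 and 8.71, 8.61, 6.63 and 7.12. In both, KO1 and KO2 stood highest, well above the next array, and WT4 lowest. Their differences were 1.39 ± 0.49 (SE, adjusted p = 0.225) and 1.21 ± 0.50 (SE, adjusted p = 0.299). Over all pairs of the 3 probe sets, r was between 0.980 and 0.992 (exact permutation p of at most 0.000422, adjusted p of at most 0.00141) and rho between 0.929 and 1 (exact permutation p of at most 0.00223, adjusted p of at most 0.00744), and r of at least 0.944 without WT4 and KO1. Of 8 fits without a single array, the brightest probe set was called in 1, without KO3 (1.70, adjusted p = 0.123), and its difference was 1.08 without WT4.

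Pparg is read by 1 probe set, 1420715_a_at, whose suffix marks probes that match several transcripts of 1 gene, so that its upstream and downstream starts cannot be told apart. It read 7.81, 7.84, 7.63 and 6.62 on WT1 to WT4 and 9.0, 8.79, 7.80 and 8.93 on KO1 to KO4. KO1, KO2 and KO4 were above all WT arrays, while KO3 lay within the WT range and WT4 lay well below the other WT arrays. Pparg rose from 7.48 ± 0.58 (SD, n = 4) to 8.63 ± 0.56 (SD, n = 4), by 1.16 ± 0.33 (SE), or 2.23-fold (limma adjusted p = 0.145, 95% interval 0.42 to 1.89). The call was narrow: it was kept without KO3 (1.43, adjusted p = 0.0851) and lost when any of the other 7 arrays was left out, where the adjusted p was 0.181 to 0.299. The difference stayed positive in all 8, from 0.87 without WT4 to 1.43.

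Cd36 and Pparg varied together across the 8 livers. Over 15 pairs of the 6 genes, each by its brightest probe set, theirs was the only one past 0.05 after adjustment of r (r = 0.92, exact permutation p = 0.00139, adjusted p = 0.0208; rho = 0.90, exact permutation p = 0.00456, adjusted p = 0.0685). Without WT4 and KO1, r was 0.81, and with the mean of each genotype removed it was 0.82. The permutations took no account of genotype, so the p-values include any shift that both genes share between genotypes. The r of 0.82 was not tested. All values of an array come from the same RNA sample. KO4 departed from this order, with Pparg at 8.93 near that of KO1 and Cd36 at 10.04, well below KO2. Nr2c2 followed neither gene closely. Its r with Cd36 was -0.39 (exact permutation p = 0.348, adjusted p = 0.633, and rho = -0.29, exact permutation p = 0.501). With Pparg it was -0.49 (exact permutation p = 0.218, adjusted p = 0.613, and rho = -0.12, exact permutation p = 0.793). Without WT1 and KO4, r was -0.38 for both. With the mean of each genotype removed, the r of Nr2c2 was 0.19 with Cd36 and 0.034 with Pparg. Within WT and within SIRT7 KO arrays, it was 0.32 and 0.11 with Cd36. With Pparg it was 0.59 within WT and -0.40 within SIRT7 KO arrays, of opposite sign. These values within genotypes rest on 4 arrays each and were not tested.

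**Figure D3:**
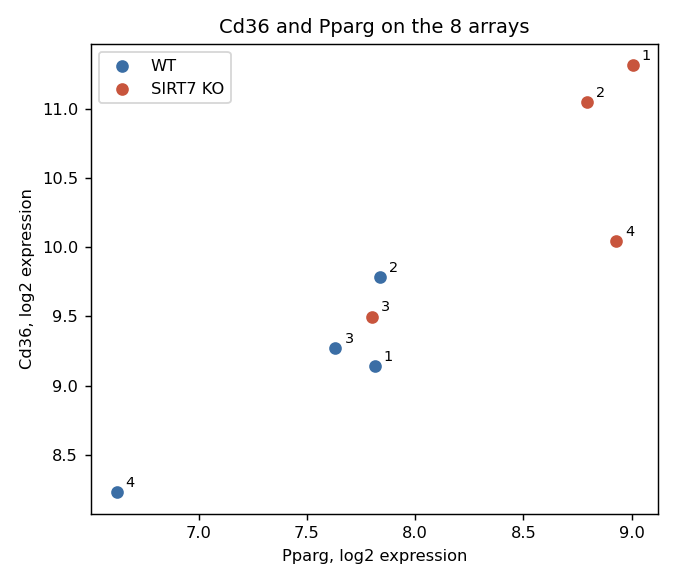
Log2 expression of Cd36 (vertical axis) against that of Pparg (horizontal axis) on the 8 arrays, each by its brightest probe set; blue points are WT and red points SIRT7 KO livers, and numbers are array numbers. KO3 (Pparg 7.80, Cd36 9.50) lies among WT1 to WT3, and WT4 (6.62, 8.23) lies below all others.

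In bulk liver RNA, a change in the share of a cell type and a change in RNA per cell cannot be told apart, and Cd36 and Pparg are also expressed by macrophages, endothelial cells and adipocytes. Of 12 macrophage markers, 0 were called and 12 had a positive difference, with a mean level per array of 8.67 to 9.74 in WT and 8.96 to 9.78 in SIRT7 KO livers and a summed signal (log2 values turned back to the linear scale) of 7546 to 17015 and 9761 to 16659. Among SIRT7 KO arrays, KO3 was highest in macrophage markers (9.78), and KO1 and KO2, highest in Cd36, had 9.07 and 8.96. Among WT arrays, WT2 was highest (9.74) and WT4 lowest (8.67) in macrophage markers, and the same arrays were highest and lowest in Cd36. Of 12 endothelial markers, Lyve1 rose (1.21, adjusted p = 0.0463) and Stab1 fell (-0.30, adjusted p = 0.132), and the summed signal was 3955 to 4213 in WT and 3689 to 4652 in SIRT7 KO livers. The defining adipocyte genes Adipoq and Lep were below the lower quartile in both genotypes (3.65 and 3.60 in WT, 3.58 and 3.54 in SIRT7 KO). Of 5 adipose markers, Fabp4 alone rose, 2 had a positive difference and the median was -0.057. The summed signal of that list was 360 to 440 in WT and 607 to 1080 in SIRT7 KO livers, which follows the level of Fabp4, given with the PPARγ targets.

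Of 8 stellate cell markers, Dcn rose (0.41, adjusted p = 0.103) and 0 fell, with a summed signal of 5644 to 7436 in WT and 7669 to 9305 in SIRT7 KO livers. Platelets also carry CD36, and of 5 platelet markers 0 were called (336 to 429 and 376 to 458). Of 7 hepatocyte markers, 0 were called and 1 had a positive difference. Their mean level per array was 14.12 to 14.22 in WT and 14.06 to 14.11 in SIRT7 KO livers, without overlap, and the summed signal was 155732 to 159872 and 155479 to 158579. Cd36 was lower within each genotype on WT4, KO3 and KO4, the same 3 arrays that stood apart along the second principal component. Their part, and that of the hepatocyte, stellate and macrophage markers, in the Cd36 and Pparg differences was not tested.

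Of 7 genes known as TR4 targets, Cd36 and Pparg included, 2 rose, 0 fell and 7 had a positive difference, with a median of 0.34 against -0.0031 over all genes. Over all 12393 genes, by their brightest probe sets, 49.3% had a positive difference and 4.65% were called, 2.17% higher and 2.48% lower. Cidec, which encodes a protein that enlarges lipid droplets, was the other gene to rise. It read 3.66, 3.85, 3.98 and 4.09 on the WT arrays and 7.35, 6.67, 4.32 and 5.23 on the SIRT7 KO arrays, and all SIRT7 KO arrays lay above all WT arrays. The rise of 2.0 ± 0.56 (SE, adjusted p = 0.141) starts from WT levels under the lower quartile (4.56), where background bounds it, and with 1 array left out it passed only for KO3 (adjusted p of up to 0.287 otherwise) and missed under a further quantile normalization (0.155) and with trend and robust variance (0.240). KO1 and KO2 were highest in Cidec, as they were in Cd36. The remaining 4 did not pass, namely Pck1, the rate-limiting enzyme of gluconeogenesis (0.34), Scd1, the stearoyl-CoA desaturase (0.23), Cidea, a relative of Cidec (0.14), and Apoe, the lipoprotein ligand (0.0025), with adjusted p of at least 0.573.

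Of 19 measured genes known as PPARγ targets, 7 rose, 0 fell and 12 were not called, while 2.17% of all genes were called higher. Of the 19, 17 had a positive difference, and the median was 0.40. The mean level of the list was 7.37 to 7.59 on the WT arrays and 7.88 to 8.42 on the SIRT7 KO arrays. Cd36 and Cidec are on this list too, and the lists were chosen with earlier results of these arrays known, so the count is a description. It depended on single arrays: leaving out WT1 gave 2 calls among the 19, leaving out KO1 or KO4 gave 3 calls, and leaving out WT2, WT3 or KO2 gave 4 calls.

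Fabp4, a fatty acid carrier of adipocytes and macrophages, read 7.78, 8.05, 8.35 and 7.82 on the WT arrays and 9.90, 8.91, 9.53 and 9.88 on the SIRT7 KO arrays, without overlap. It rose by 1.55 ± 0.22 (SE, adjusted p = 0.0276) and passed whichever array was left out. Of its 4 probe sets, 3 were called higher and the remaining one had a difference of 0.38 (adjusted p = 0.192). Unlike Cd36, Fabp4 was lowest on KO2 among the SIRT7 KO arrays.

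Besides Cidec and Fabp4, the genes called were Fitm1, Plin2, Plin4, Mogat1 and Aqp7. Fitm1, which partitions triglyceride into droplets, rose by 0.94 ± 0.17 (SE, adjusted p = 0.0495) and passed in each of the 8 fits. Plin2, the droplet coat protein of hepatocytes, read 12.82, 12.76, 12.85 and 12.32 on the WT arrays and 13.77, 13.57, 13.25 and 13.18 on the SIRT7 KO arrays, without overlap. It rose by 0.76 ± 0.16 (SE, adjusted p = 0.0705), a call lost if WT1 or KO2 was left out (adjusted p = 0.156 in each). Plin4, a related coat protein, rose by 0.51 ± 0.11 (SE, adjusted p = 0.0841) and among fits with 1 array left out passed for WT4 and for KO3 (up to 0.199 otherwise).

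Mogat1, which makes diacylglycerol, read 4.78, 5.99, 5.33 and 5.11 on the WT arrays and 7.55, 8.87, 6.11 and 7.31 on the SIRT7 KO arrays. All SIRT7 KO arrays were above all WT arrays, KO3 only just above WT2. It rose by 2.16 ± 0.50 (SE, adjusted p = 0.0924), and the call depended on WT1 and WT3 and on KO1 and KO4, being lost if any of them was left out (up to 0.223), and was lost with trend and robust variance (0.163). Aqp7, a glycerol channel, rose by 0.40 ± 0.11 (SE, adjusted p = 0.14) from a dim WT mean of 4.11. Of the fits with 1 array left out it passed for KO2 alone, it missed under a further quantile normalization (0.185), and its other probe set had the opposite sign (-0.11, adjusted p = 0.582).

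**Figure D4:**
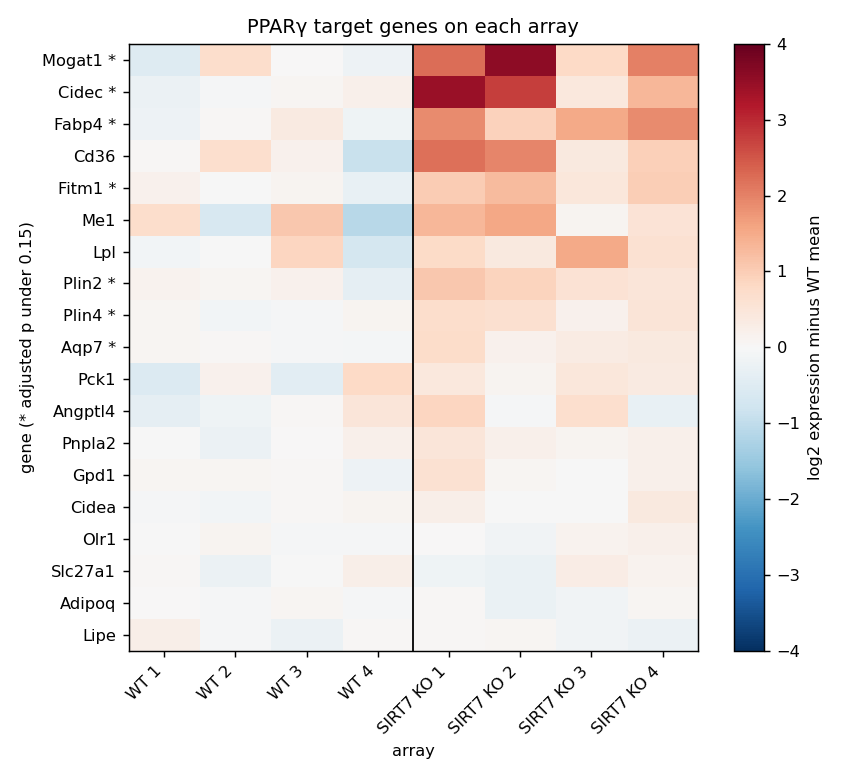
Log2 expression minus the WT mean (colour) of 19 PPARγ target genes (rows, ordered by their difference, with a star at an adjusted p under 0.15) on the 4 WT and 4 SIRT7 KO arrays (columns). Mogat1, Cidec, Cd36 and Fitm1 are weakest on KO3 among the SIRT7 KO arrays, while Adipoq and Lipe differ by -0.068 and -0.068.

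Of 19 genes of fatty acid uptake and activation outside Cd36, 3 rose and 0 fell, with a median of 0.043. Besides Fabp4, Acsl4, which activates polyunsaturated fatty acids, rose by 0.72 ± 0.13 (SE, adjusted p = 0.0495) and passed whichever array was left out, and its 2 further probe sets were called higher as well (0.58 and 0.67). Fabp5, another fatty acid carrier, rose by 1.10 ± 0.25 (SE, adjusted p = 0.0883), with a second probe set called too (1.26, adjusted p = 0.106), and its call was lost if WT1 or WT2 or any of KO1, KO3 and KO4 was left out (up to 0.213).

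No nuclear receptor around TR4 and PPARγ passed, although Nr2f6 did under several alternatives. Of 10 measured members of the NR2 family, Nr2c2 itself included, 0 were called and 2 had a positive difference, with a median of -0.17. Before adjustment 4 were lower at a p below 0.05, Nr2c2 among them, against 8.43% of all probe sets. The mean level of the family was 7.95 to 8.01 on the WT arrays and 7.74 to 7.86 on the SIRT7 KO arrays, without overlap. The smallest p values were those of Nr2f6, an orphan receptor of the COUP group (-0.26 ± 0.079 SE, adjusted p = 0.163), and Rxra, the RXR partner of many receptors (-0.20 ± 0.073 SE, adjusted p = 0.25). Nr2f6 passed with array quality weights (0.114), with dim probe sets left out (0.144) and, of 8 fits without a single array, only without WT4 (0.119). Its other probe set had a difference of -0.21 (adjusted p = 0.512), with overlap between the genotypes. A further Rxra probe set had a difference of -0.0013. Of 2 measured TR4 partners, Nr2c1, the related receptor TR2, differed by -0.15 ± 0.19 (SE, adjusted p = 0.77). Its other probe set, dim in both genotypes, had the opposite sign (0.11, adjusted p = 0.606). Nr2c2ap, a TR4-binding protein, differed by -0.0079 ± 0.073 (SE, adjusted p = 0.975), and its sign turned with array quality weights and a further quantile normalization. Of 14 PPARγ partners and coregulators 0 were called, and the lowest p, ahead of that of Rxra, was that of Cebpa, a hepatocyte and adipocyte transcription factor (-0.28 ± 0.10 SE, adjusted p = 0.22).

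No gene of the wider ligase machinery passed by its brightest probe set, although Brwd1 did under several alternatives. Of 23 partners and substrate receptors of CUL4, 0 were called and 7 had a positive difference, with a median of -0.086, and 6 were lower before adjustment, at a p below 0.05, against 8.43% of all probe sets. Brwd1, a bromodomain protein of the substrate receptor family, had the smallest p (-0.42 ± 0.12 SE, adjusted p = 0.151). It lay just outside the threshold by its brightest probe set, and passed with trend and robust variance (0.141), with array quality weights (0.124), with dim probe sets left out (0.134), with 1 probe set for each gene (0.145) and without KO3 (0.130). Of its further probe sets, 2 of 3 fell (-0.65, adjusted p = 0.0641, and -0.34, adjusted p = 0.136). Cop1, itself a ubiquitin ligase that joins DDB1, differed by -0.23 ± 0.071 (SE, adjusted p = 0.177).

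Of 18 genes of cullin neddylation and the COP9 signalosome, which switch cullins on and off, 0 were called and 9 had a positive difference. Uba3, a subunit of the enzyme that activates NEDD8, had 0.24 ± 0.078 (SE, adjusted p = 0.194). Cand1, the cullin exchange factor, had -0.17 ± 0.073 (SE, adjusted p = 0.318). By these probe sets the SIRT7 KO arrays lay all above the WT arrays for Uba3 and all below them for Cand1. Such a separation in either direction was seen in 9.35% of all probe sets, and the genotypes overlapped in the further probe sets of both genes. Of 5 other cullins 0 were called. Cul3 differed by -0.12 (adjusted p = 0.37), with the opposite sign in both of its other probe sets, and Cul2 by 0.10 (adjusted p = 0.537). The dimmer Cul2 probe set had a difference of 0.31 (adjusted p = 0.211).

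**Figure D5:**
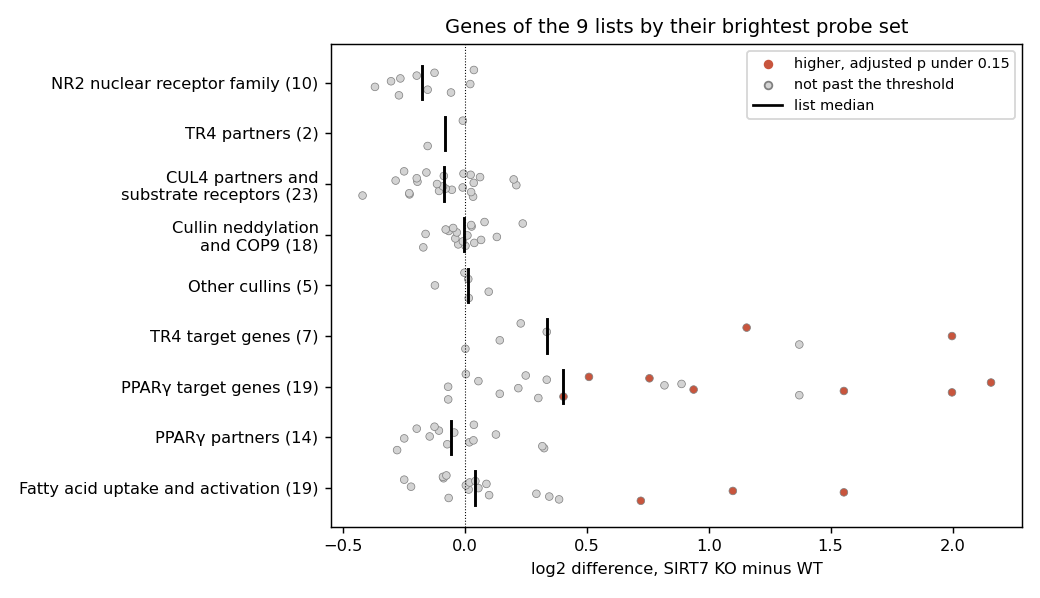
Difference in log2 expression, SIRT7 KO minus WT (horizontal axis), of the genes of 9 lists (vertical axis, with the number of measured genes), each gene by its brightest probe set; red points passed at an adjusted p under 0.15 and black bars are list medians. Calls lie in the TR4 target, PPARγ target and fatty acid uptake lists, with medians of 0.34, 0.40 and 0.043, and in 0 genes of the receptor and ligase lists.

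Among genes whose brightest probe set lay above the median of all, the 3 whose levels followed each member most closely over the 8 arrays were named by their Pearson r, a rank among 6922 candidates and not a test. For Cd36 they were 2010003K11Rik (r = 0.98, rho = 0.98), the chloride transporter Clcn3 (r = 0.97, rho = 1) and the mitochondrial dicarboxylate carrier Slc25a10 (r = 0.97, rho = 0.93), of which 2010003K11Rik was called higher (1.43, adjusted p = 0.0843). For Pparg they were Fez2, Ermp1 and Pawr (r between 0.970 and 0.975), with differences of 0.31, 0.46 and 0.43. For Nr2c2 they were Ube2r2, Cmtm8 and Purb (r between 0.959 and 0.970), for Ddb1 Htt, Tbxa2r and Asb6 (0.913 to 0.926), for Cul4a Slc35e1, Kdelr2 and Set (0.911 to 0.918), and for Cul4b Pcca, Nelfb and Ppox (0.964 to 0.973). All arrays, both genotypes included, entered these values.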

How the data were processed

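Biotin-labelled liver RNA was read on Affymetrix GeneChip mouse arrays, and the authors deposited the results as log2 expression, in a single table of probe sets by arrays. Values were background-corrected, normalized between arrays and summarised over the probes of a probe set. RMA is named in the methods of the study but GCRMA in the processing notes of the submitters, and it is not settled from which these values came. GCRMA corrects background by probe sequence, so that differences between dim probe sets can depend on that choice. The sources used here give no version of either.

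The 64 control probe sets were left out of 22690. Gene names came from GEO's annotation of the platform, which gives 20380 probe sets a single symbol, 691 more than 1 and 1555 no symbol; of the first, 20351 matched the GRCm38.p6 gene table by Entrez ID. Each gene of a list was read by its brightest probe set over all arrays. limma (version 3.58.1, R 4.3.3) compared 4 SIRT7 KO with 4 WT arrays in a two-sided test with no term but genotype, with Benjamini-Hochberg adjustment over 22626 probe sets and a threshold of 0.15, the false discovery rate set in the methods of the study. The fit was tested on simulated data. Exact permutation tests of correlations were two-sided over all orders of the 8 arrays. The number of arrays limits the precision.

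The 6 genes, the 9 pathway and 6 marker lists and the rule for naming genes were chosen with earlier results of these data known. The rule named all members, in each list the genes called (at most 6 by smallest p) or otherwise the 2 with the smallest p, and the 3 genes most like each member. The 4 TR4 targets that did not pass, the cell type markers and further probe sets were added after their values were seen. The alternatives were a threshold of 0.05, array quality weights, eBayes with trend and robust variance, another round of quantile normalization, leaving out dim probe sets (under 4.56 in both genotypes), 1 probe set for each gene, the replicate number as a block and leaving out each array. The planned log2 transformation was not needed. No scanner files or dates were used, so background correction and scan batch were not varied.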

Additional observations from a re-analysis of the deposited data

Results flagged for a closer look

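In 8 of 66 groups of 4 arrays examined, 1 array lay far from the other 3 by Dixon's criterion, which chance meets in about 1 group in 20. For Pparg, WT4 was at 6.62, the others between 7.63 and 7.84, and without it the difference was 0.87 in place of 1.16. For Nr2c2, KO4 was at 5.14 by probe set 1425014_at (others 5.70 to 5.73), and WT4 at 4.75 by the dim probe set 1454167_at (others 4.38 to 4.41). For Ddb1, KO3 was at 9.96 (others 9.84 to 9.85). For Cul4b, KO2 was at 8.36 by probe set 1417453_at (others 8.55 to 8.57). Among the other named genes, KO4 was at 9.44 for Nr2f6 (others 9.59 to 9.60) and at 7.29 for Nr2c1 (others 7.70 to 7.74), and KO1 was at 6.91 for Nr2c2ap (others 7.13 to 7.15). Of these 8, KO4 accounted for 3 and WT4 for 2, and the cause was not tested.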

How the results depend on the processing

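The direction of the Cd36 and Pparg differences held under all alternatives run, while their calls did not. Of member probe sets, 1 was called; 0 were called at 0.05 and 0 with trend and robust variance, under which Pparg had an adjusted p of 0.209. Leaving out single arrays gave 0 to 2 called members, with 0 in each fit but that without KO3. With the replicate number as a block, 2 were called, both of Cd36 (adjusted p = 0.134 each), and Pparg (0.187), Cidec (0.183) and Aqp7 (0.172) were lost. Arrays sharing a number correlated in their deviations by 0.26, -0.25, -0.16 and 0.15 for numbers 1 to 4, and in 0 of 4 did the WT array correlate best with its own number, so the number was not taken as a pairing.

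Over all probe sets, 975 of 22626 were called, against 156 at 0.05, 628 with the replicate block, 1331 with array quality weights, 1188 of 17219 with dim probe sets left out and 633 of 12393 with 1 probe set for each gene, a table of fewer tests. Without single arrays the count was 222 to 900, with 222 without WT1, 503 without WT2, 460 without KO2, 576 without KO1, 594 without KO3 and 267 without KO4. Of 106 genes on the 9 lists, 10 were called, 3 at 0.05 and 3 to 10 without single arrays (3 without WT1; 4 without KO1 or KO4; 6 without WT2, WT3 or KO2). Of the PPARγ targets, 7 were called, 2 at 0.05 and 2 to 7 without single arrays.

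Signs turned only for values near 0. The difference of Nr2c2 probe set 1449605_at was -0.0033 and that of Cul4b probe set 1417454_at 0.020 under a further quantile normalization, and that of Nr2c2ap 0.0091 with array quality weights and 0.012 under that normalization. Without single arrays they were -0.013 to 0.075, -0.049 to 0.026 and -0.030 to 0.049. For single named genes, 395 of the values under alternatives kept direction and side of the threshold, 53 lost the call, 11 gained it and 12 turned sign. Dim probe sets, such as those of Cidec and Aqp7 in WT, are limited by background.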
